A study of Mus musculus with 24 samples.

Results

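The cell-cell junction genes described here are 9 genes of adherens junctions and desmosomes, namely Cdh1, Ctnna1, Ctnnb1, Ctnnd1, Jup, Dsp, Dsc2, Dsg2 and Epcam. They were taken from a list of symbols, looked up in the platform annotation of the array, and are 9 of the 19938 genes that the annotation names with 1 symbol. Each of the 9 had 1 probe set. Levels were measured in pools of mouse blastocysts on Affymetrix arrays and are given as log2 intensities, with 1 array per pool. Parents and embryos were outbred NMRI mice, and blastocysts were taken at 3.5 days post coitum. A pool combined the lysates of 3 sex-matched embryos of a single dam. Feeding began at 3 weeks of age and lasted 9 weeks, and matings took place when the animals were 12 weeks old. In the obese-mother groups the dam was raised on a high-fat diet and her mate on the control diet. In the obese-father groups the sire was raised on the high-fat diet and his mate on the control diet, and in the lean-parent groups both were raised on the control diet. All animals received the control diet during mating. Male and female embryos of each kind of parents gave 6 groups of 4 arrays, 24 in all. The dam and sire behind a given pool are not named in the labels. Pools of the same sex may share a sire, and a male and a female pool may share a dam as well. The tests treat all pools as independent, also between the sexes, and p-values measure the spread between pools. The comparisons ask whether obesity of 1 parent is associated with other transcript levels in male or in female embryos.

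Adherens junctions hold neighbouring cells together through cadherins, whose outer parts bind each other between cells and whose inner parts bind catenins that connect to actin. Desmosomes are spot-like junctions in which desmosomal cadherins bind plakoglobin and plakophilins, and desmoplakin ties them to keratin filaments. In the mouse embryo E-cadherin drives compaction of the morula, and the trophectoderm then becomes the first epithelium, with desmosomes that appear as the blastocyst cavity forms.

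Promoter windows from RefSeq (GRCm38.p6), running from 250 bases before to 50 bases after the annotated start of transcription, were found for 5 of the 9 genes (Ctnnb1, Ctnnd1, Dsp, Epcam and Jup). The files name no genome build, so these positions belong to RefSeq and not to the probe sets. Ctnnb1 and Ctnnd1 had 2 windows each. A window of 3 genes is shown, for Ctnnb1 the first of its 2, 5′ to 3′ on the strand of the gene. Epcam was the most variable of the 9 genes, and Jup and Ctnnb1 encode the related proteins plakoglobin and beta-catenin but varied differently across arrays. Capitals mark matches on either strand to a GC box (GGGCGG), to the E-box bound by SNAI and ZEB repressors (CAGGTG) and to the AP-2 motif (GCCNNNGGC), and no 2 of these matches overlap in these windows.
Epcam, chr17:87635729-87636028, plus strand: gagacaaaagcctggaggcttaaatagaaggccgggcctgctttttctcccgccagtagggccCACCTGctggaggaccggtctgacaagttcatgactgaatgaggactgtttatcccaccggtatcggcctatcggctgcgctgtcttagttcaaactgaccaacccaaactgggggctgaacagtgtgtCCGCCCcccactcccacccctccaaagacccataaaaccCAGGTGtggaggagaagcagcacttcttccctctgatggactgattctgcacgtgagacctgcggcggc
Jup, chr11:100397741-100398040, minus strand: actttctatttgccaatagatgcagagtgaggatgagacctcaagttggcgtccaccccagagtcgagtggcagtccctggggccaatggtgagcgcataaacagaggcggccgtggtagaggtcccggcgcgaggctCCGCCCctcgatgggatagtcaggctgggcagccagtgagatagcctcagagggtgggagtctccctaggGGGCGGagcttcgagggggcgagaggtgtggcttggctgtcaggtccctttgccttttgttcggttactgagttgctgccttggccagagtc
Ctnnb1, chr9:120933150-120933449, plus strand: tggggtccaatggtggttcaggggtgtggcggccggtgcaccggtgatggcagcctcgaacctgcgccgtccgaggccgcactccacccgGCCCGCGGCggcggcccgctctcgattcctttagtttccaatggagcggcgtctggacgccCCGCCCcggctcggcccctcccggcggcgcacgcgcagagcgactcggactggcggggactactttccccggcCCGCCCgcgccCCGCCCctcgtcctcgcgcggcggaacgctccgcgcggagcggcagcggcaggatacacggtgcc
The Epcam window held 2 E-boxes and 1 GC box, the Jup window 2 GC boxes and the Ctnnb1 window 3 GC boxes and 1 AP-2 motif. Of all 32851 windows of this length, 35.7% held the GC box, 20.2% the E-box and 16.6% the AP-2 motif. The TEAD motif GGAATG (14.7% of windows), the GRHL motif AACCNGTT (2.09%) and the TATA box TATAAA (13.6%) did not match in these 3 windows. The second window of Ctnnb1, which starts further downstream and is not shown, held 1 match to the TATA box. Of the other windows not shown, that of Dsp held 4 GC boxes, 1 E-box and 1 AP-2 motif. Of the 2 Ctnnd1 windows 1 held 1 AP-2 motif and 1 TATA box, and the other held no match. Guanine and cytosine made up 57% of the Epcam window, 60.7% of the Jup window and 75.3% of the Ctnnb1 window, and the median over all windows was 52.7%. These matches describe the sequence and are not binding sites.

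The arrays differed in a way that moved with many of the values below. Array means lay between 2.82 and 2.86, but the standard deviation of all values on an array, called its signal spread here, ran from 1.27 to 1.81. Lean-parent male arrays 4 (1.27) and 1 (1.29) were the narrowest, and obese-father female array 22 (1.81) and obese-father male array 12 (1.72) were the widest. The median of the whole table was 2.56, and the 13311 genes that exceeded it on 4 or more arrays entered the fit. A mean above the table median does not by itself identify a cell type. Of cumulus and granulosa markers 7 of 12 had one, and of sperm markers 5 of 7. Of 12 trophectoderm markers 11 had a mean above the table median, among them the keratins Krt8 and Krt18, as had 8 of 8 markers of the inner cell mass, such as Pou5f1 and Nanog. The array means of the trophectoderm list ran from 3.99 to 5.34 and correlated with the spread (Pearson r = 0.91).

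All 9 junction genes passed the filter, so none of them was left out. Cdh1, Ctnnb1, Jup, Dsp and Epcam exceeded the table median on 24 of 24 arrays, Ctnna1 and Ctnnd1 on 23, Dsc2 on 15 and Dsg2 on 7. Dsc2 and Dsg2 thus lay close to the median of the table, and no background level was measured here.

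Epcam encodes a homophilic adhesion protein of epithelial and pluripotent cells that also binds claudins. In male embryos Epcam stood at 3.68, 5.19, 3.90 and 5.41 with obese mothers, at 5.08, 5.41, 5.36 and 6.41 with obese fathers, and at 2.61, 4.97, 5.25 and 3.04 with lean parents. The obese-father males all lay at or above 5.08, and the lean-parent males comprised arrays 2 and 3, at 4.97 and 5.25, and arrays 1 and 4, at 2.61 and 3.04, so the groups overlapped. In female embryos it stood at 4.49, 5.49, 3.94 and 4.53 with obese mothers, at 4.49, 6.59, 4.30 and 3.53 with obese fathers, and at 4.20, 5.55, 5.07 and 5.15 with lean parents. Those 3 female groups overlapped.

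Epcam averaged 5.56 ± 0.58 in males of obese fathers and 3.97 ± 1.34 in males of lean parents (SD, n = 4 each). This is a log2 fold change of 1.60 (SE 0.61, 95% interval 0.32 to 2.87), or 3.02-fold, with an unadjusted p of 0.0164 and an adjusted p of 0.316 (limma, Benjamini-Hochberg over all genes), so it did not pass. It was the 1 junction gene of 9 with an unadjusted p under 0.05 here, against 14.7% of all 13311 genes. The pair of lean-parent males with low Epcam, arrays 1 and 4, had the narrowest spreads of all 24 arrays, and the other pair, arrays 2 and 3, had Epcam of 4.97 and 5.25 at spreads of 1.42 and 1.53. The obese-father male arrays 9, 10 and 11 had Epcam of 5.08 to 5.41 at spreads of 1.49 to 1.52. The spread averaged 1.56 ± 0.105 in males of obese fathers and 1.38 ± 0.124 in males of lean parents, and the trophectoderm list averaged 4.94 in males of obese fathers and 4.33 in males of lean parents, with 10 of its 12 members above 0. The list of the inner cell mass averaged 4.20 in males of obese fathers and 3.88 in males of lean parents, with 5 of 8 members above 0 (r = 0.87 with the spread), and that of the primitive endoderm 3.46 and 3.44 in the same groups, with 5 of 8 above 0 (r = 0.46). The part of these lists in the Epcam value was not tested. With the signal spread as a covariate the log2 fold change of Epcam was 0.38 (adjusted p = 0.80), and when single arrays were left out it ran from 1.14 to 2.02.

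In the other comparisons with lean parents Epcam was at 0.58 in males of obese mothers, at -0.38 in females of obese mothers and at -0.27 in females of obese fathers (log2 fold change, SE 0.61 each), and none passed. The difference of the obese-father effect between the sexes, male minus female, was 1.86 (SE 0.87, 95% interval 0.06 to 3.66), with an unadjusted p of 0.0433 and an adjusted p of 0.654. The share of all genes with an unadjusted p under 0.05 in that test was 7.54%. With the spread as a covariate the difference was 0.68, with array weights 2.37 and without the 2 arrays of widest spread 2.20. When single arrays were left out it ran from 1.41 to 2.48, the high end without obese-father female array 22. Without that array Epcam in females of obese fathers was at -0.89. None of these passed.

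**Figure D1:**
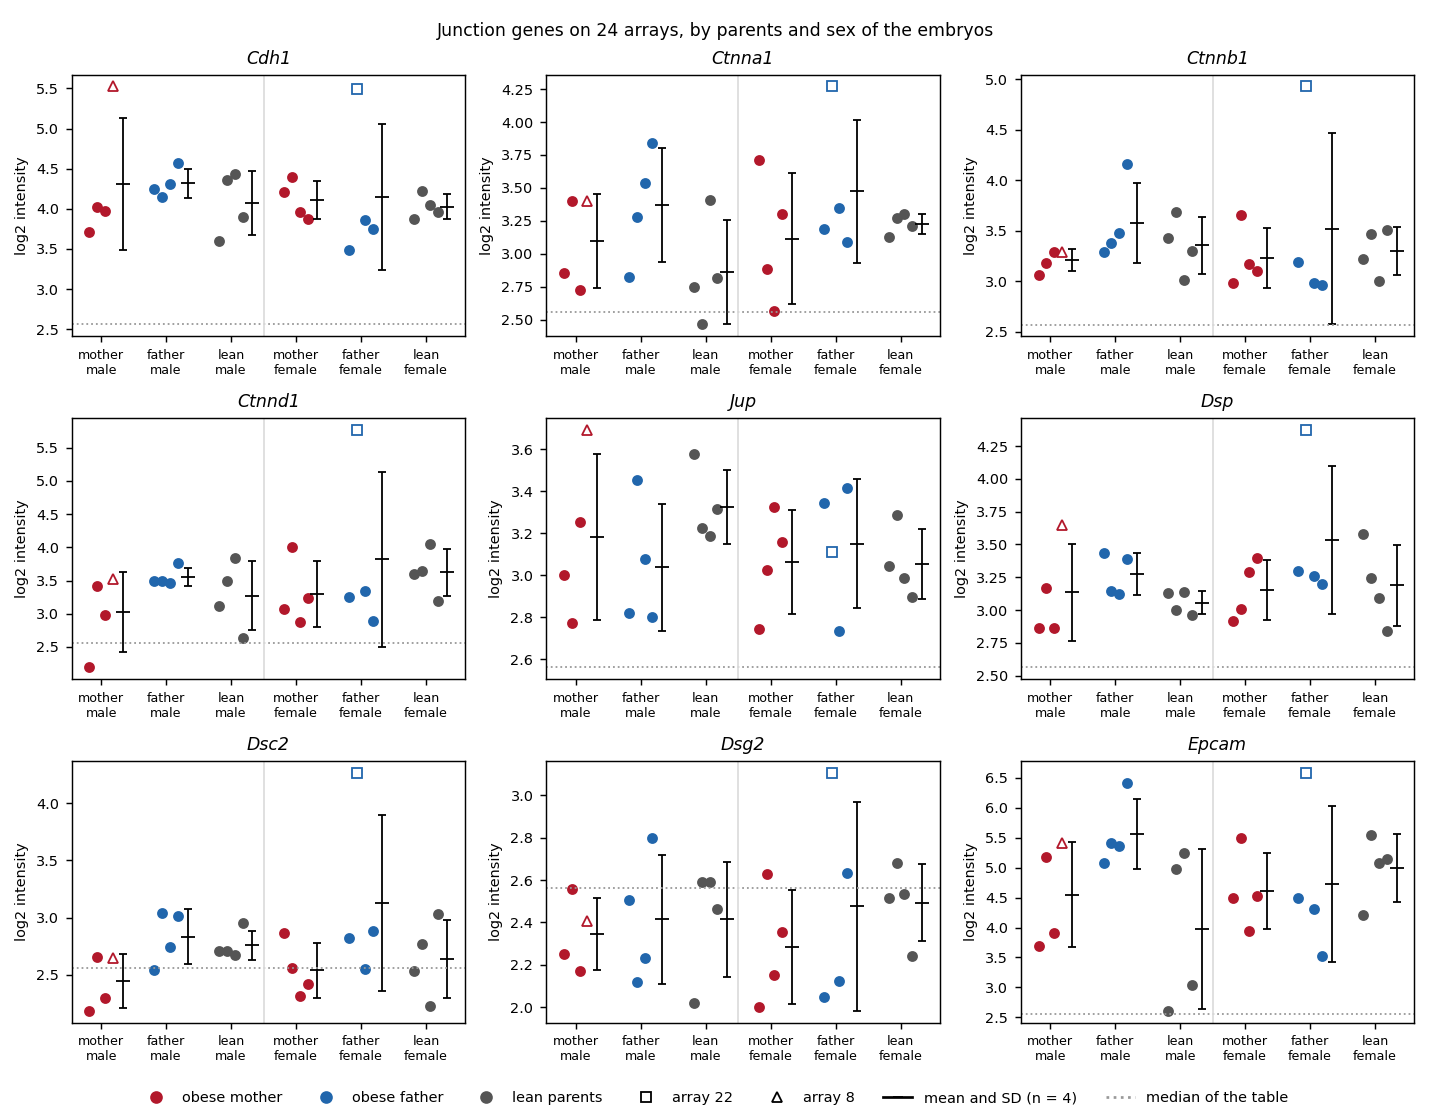
Log2 intensity of each junction gene (y axis) on every array, by parents and sex of the embryos (x axis, 4 arrays a group). Black bars give mean and SD, the dotted line marks the table median of 2.56, and open symbols mark arrays 22 and 8. Array 22 (open square) had the highest value of 7 of the 9 genes, and the groups overlapped for most genes.

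Cdh1 encodes E-cadherin, the classical cadherin of the embryo. In male embryos Cdh1 stood at 3.72, 4.02, 3.97 and 5.52 with obese mothers, at 4.25, 4.14, 4.31 and 4.57 with obese fathers, and at 3.60, 4.36, 4.44 and 3.89 with lean parents. In female embryos it stood at 4.21, 4.40, 3.96 and 3.87 with obese mothers, at 3.48, 5.49, 3.87 and 3.75 with obese fathers, and at 3.87, 4.23, 4.04 and 3.96 with lean parents. Apart from array 8 of the obese-mother males (5.52) and array 22 of the obese-father females (5.49), the values lay between 3.48 and 4.57. The 6 group means were between 4.03 and 4.32, and each group overlapped the next in the order. The log2 fold change from lean parents was 0.24 in males of obese mothers, 0.24 in males of obese fathers, 0.08 in females of obese mothers and 0.12 in females of obese fathers (SE 0.36 each). Without array 8 the value in males of obese mothers was -0.17, and without array 22 that in females of obese fathers was -0.32. The 95% intervals of these 4 comparisons reached down to -0.66 and up to 0.99.

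The catenins join the cadherins to the cell interior. Ctnna1 encodes alpha-catenin, which links the complex to actin, Ctnnb1 encodes beta-catenin, which bridges cadherin and alpha-catenin and is also the effector of Wnt signalling, and Ctnnd1 encodes p120-catenin, which stabilises cadherin at the membrane. Ctnna1 stood at 2.83, 3.28, 3.54 and 3.84 in males of obese fathers and at 2.75, 2.47, 3.41 and 2.82 in males of lean parents. Array 3 of the lean-parent males lay within the obese-father range, so these groups overlapped. Their difference was a log2 fold change of 0.51 (SE 0.28, unadjusted p = 0.0782, adjusted p = 0.36), and with the spread as a covariate it was 0.10.

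Ctnnb1 stood at 3.06, 3.18, 3.29 and 3.29 in males of obese mothers and at 3.29, 3.38, 3.47 and 4.16 in males of obese fathers. All 4 obese-mother males were below the obese-father males, though the highest of the first group (3.29) lay directly under the lowest of the second. The log2 fold change, mother minus father, was -0.37 (SE 0.31, adjusted p = 0.636). It was -0.18 without obese-father male array 12 and -0.04 with the spread as a covariate. Of all genes 1.28% were lower without overlap in this comparison, and the share with an unadjusted p under 0.05 was 8.35%. In lean-parent males Ctnnb1 stood at 3.43, 3.68, 3.01 and 3.30, which overlapped both.

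Ctnnd1 had the second-widest range of the 9 genes. In males it stood at 2.19, 3.41, 2.98 and 3.52 with obese mothers, at 3.49, 3.50, 3.47 and 3.76 with obese fathers, and at 3.12, 3.50, 3.84 and 2.64 with lean parents. In females it stood at 3.08, 4.00, 2.87 and 3.24 with obese mothers, at 3.26, 5.77, 3.34 and 2.90 with obese fathers, and at 3.60, 3.65, 4.05 and 3.19 with lean parents. Obese-father males were the tightest group (SD 0.14) and obese-father females the loosest (SD 1.32), through array 22 alone. The log2 fold changes from lean parents lay between -0.32 and 0.28 (SE 0.44).

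Jup encodes plakoglobin, the one catenin shared by adherens junctions and desmosomes. It ran from 2.74 to 3.69 over the 24 arrays, the narrowest range of the 9, and its highest value was on array 8. In males it averaged 3.18 ± 0.39 with obese mothers, 3.04 ± 0.30 with obese fathers and 3.33 ± 0.18 with lean parents (SD, n = 4 each). It was below lean parents by a log2 fold change of -0.29 in males of obese fathers (SE 0.19, adjusted p = 0.437), where Cdh1 and the catenins Ctnna1, Ctnnb1 and Ctnnd1 were above 0. None of these passed, and with the spread as a covariate Cdh1 (-0.34), Ctnnb1 (-0.25) and Ctnnd1 (-0.57) were below 0 as Jup was (-0.21).

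Dsp encodes desmoplakin, which anchors keratin filaments to the desmosome. Dsp stood at 3.30, 4.38, 3.26 and 3.20 in females of obese fathers and at 3.58, 3.24, 3.09 and 2.84 in females of lean parents. For these females the log2 fold change was 0.34 (SE 0.22, unadjusted p = 0.137, adjusted p = 0.9997), and without array 22 it was 0.06. In males of obese fathers it stood at 3.44, 3.15, 3.12 and 3.39, against 3.13, 3.0, 3.14 and 2.96 in males of lean parents, a log2 fold change of 0.22 (SE 0.22).

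Dsc2 encodes desmocollin-2, a desmosomal cadherin, and it had the largest share of variance between groups of the 9 genes, 30.6%, where the median over all tested genes was 20.5%. That share includes obese-father female array 22, at 4.27, where the next highest array was at 3.04, and it was not computed without array 22. In males Dsc2 stood at 2.19, 2.65, 2.30 and 2.64 with obese mothers, at 2.54, 3.04, 2.74 and 3.01 with obese fathers, and at 2.71, 2.70, 2.67 and 2.95 with lean parents. All 4 obese-mother males were below the lean-parent males, with a gap from 2.65 to 2.67, and 0.856% of all genes were lower without overlap in this comparison. In size this is a log2 fold change of -0.31 (SE 0.26, unadjusted p = 0.244, adjusted p = 0.9998). In females it stood at 2.86, 2.56, 2.31 and 2.42 with obese mothers and at 2.82, 4.27, 2.55 and 2.88 with obese fathers. The log2 fold change, mother minus father, was -0.59 (SE 0.26, 95% interval -1.13 to -0.05, unadjusted p = 0.0337, adjusted p = 0.975), and without array 22 it was -0.21. The share of all genes with an unadjusted p under 0.05 here was 3.25%.

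Dsg2 encodes desmoglein-2, the partner cadherin of Dsc2 in the desmosomes of simple epithelia. It ran from 2.0 to 3.11, with array 22 highest and 17 of 24 arrays at or under the table median. Its group means lay between 2.28 and 2.49, and its log2 fold changes from lean parents between -0.21 and -0.00123 (SE 0.21). The stricter filter on dim genes removed it.

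Counted together, the 9 genes gave no call. In males of obese fathers 7 of 9 were above 0 with a median log2 fold change of 0.22, where 33.3% of all genes were above 0 and the median was -0.11. Of the 8 that correlated positively with the spread 7 were above 0, and 79.7% of all genes with a positive correlation were. With the spread as a covariate the median of the 9 was -0.25. The 1 gene called in this comparison among all 13311 (0.00751%) was not a junction gene. In males of obese mothers 4 of 9 were above 0, with a median of -0.07 for the 9 and -0.01 for all genes. In females of obese fathers 7 of 9 were above 0 with a median of 0.20, against 0.02 for all genes, and in females of obese mothers 2 of 9 with a median of -0.10, against 0.05. The share of all genes above 0 was 46.1% in males of obese mothers, 54.9% in females of obese fathers and 61.7% in females of obese mothers. Of all genes that correlated positively with the spread, 59.4%, 68.8% and 40.3% were above 0 in these comparisons, in the same order. Of the 8 junction genes with a positive correlation 4, 6 and 1 were. In these 3 comparisons 0 of 9 had an unadjusted p under 0.05 and limma called 0% of all genes, while the share of all genes with an unadjusted p under 0.05 was 1.7% in males of obese mothers, 2.84% in females of obese fathers and 2.19% in females of obese mothers. The median of 0.20 in females of obese fathers rested on array 22, and without it the median was -0.23. The comparisons share the lean-parent arrays of their sex.

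**Figure D2:**
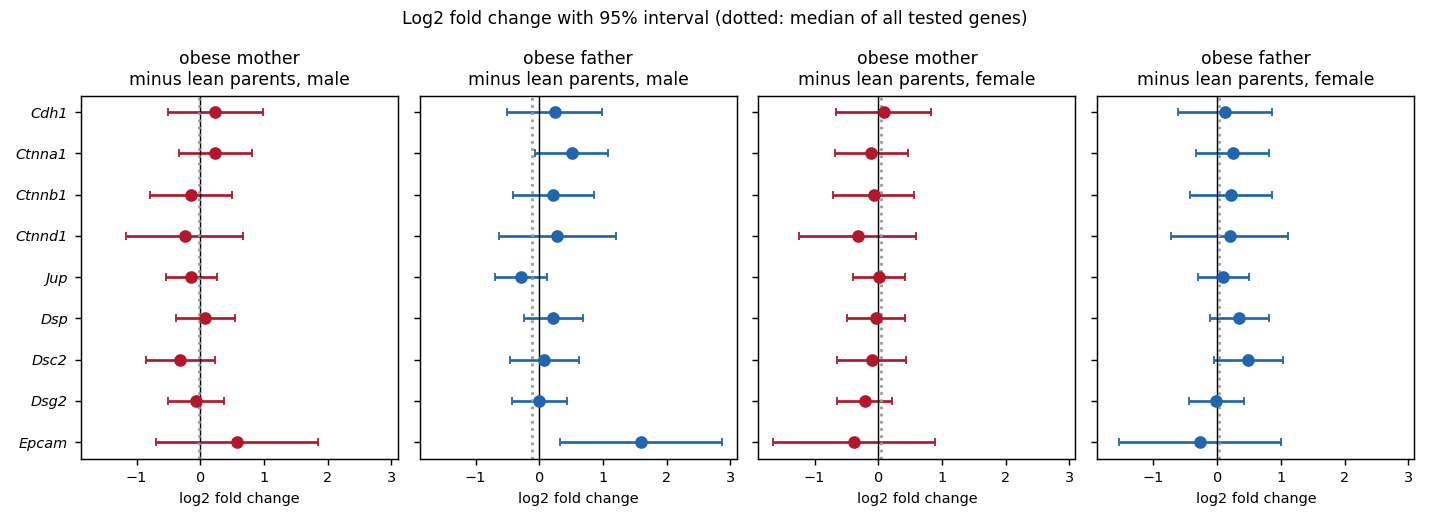
Log2 fold change against lean parents (x axis) of each junction gene (y axis) for obese mothers and obese fathers in each sex, with the 95% interval of the limma fit. Epcam in males of obese fathers, at 1.60, was the 1 value whose interval left out 0 before adjustment over all genes. Dotted lines give the median of all tested genes.

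Between obese mothers and obese fathers, 1 of 9 genes was above 0 in males (Jup, 0.14) and 0 of 9 in females, with medians of -0.28 and -0.29. The medians over all genes were 0.09 and 0.03, and 65.1% of all genes were above 0 in males and 55.5% in females. Epcam had the lowest value in males, at -1.02 (SE 0.61, adjusted p = 0.583; -0.17 with the spread as a covariate), and Dsc2 in females. Without array 22 the median in females was 0.02, and with the spread as a covariate the median in males was 0.04. Between the sexes 0 of 9 had an unadjusted p under 0.05 for any kind of parents, against 1.41% of all genes with obese mothers, 5.42% with obese fathers and 3.37% with lean parents. The largest of these sex differences was that of Epcam with lean parents, at -1.02, male minus female (SE 0.61, adjusted p = 0.992). It ran from -1.45 without lean-parent male array 3 to -0.57 without lean-parent male array 1, and was -0.44 with the spread as a covariate. For the difference of the obese-mother effect between the sexes, 0 of 9 had an unadjusted p under 0.05, where 2.58% of all genes did, and Epcam was highest, at 0.96 (SE 0.87).

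The level of 8 of the 9 genes correlated positively with the signal spread over the 24 arrays. Pearson r over the 24 arrays was 0.93 for Epcam (Spearman rho 0.93), 0.84 for Ctnnd1 (0.81), 0.74 for Ctnna1 (0.67), 0.73 for Cdh1 (0.76), 0.72 for Ctnnb1 (0.37), 0.66 for Dsg2 (0.51), 0.60 for Dsc2 (0.30) and 0.56 for Dsp (0.25). Jup was the exception, at -0.28 (rho -0.31). Of all tested genes 17.5% had r above 0.5, the median was -0.42, and 0.398% had a higher r than Epcam. Without arrays 12 and 22, which were farthest from the median spread, r was 0.93 for Epcam, 0.77 for Ctnnd1, 0.58 for Cdh1, 0.49 for Ctnna1, 0.37 for Dsg2, 0.24 for Ctnnb1, 0.13 for Dsp and 0.12 for Dsc2. The relation of Ctnnb1, Dsp and Dsc2 to the spread therefore rested on these arrays. The spread is computed from the same arrays as the levels, so no p is given.

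**Figure D3:**
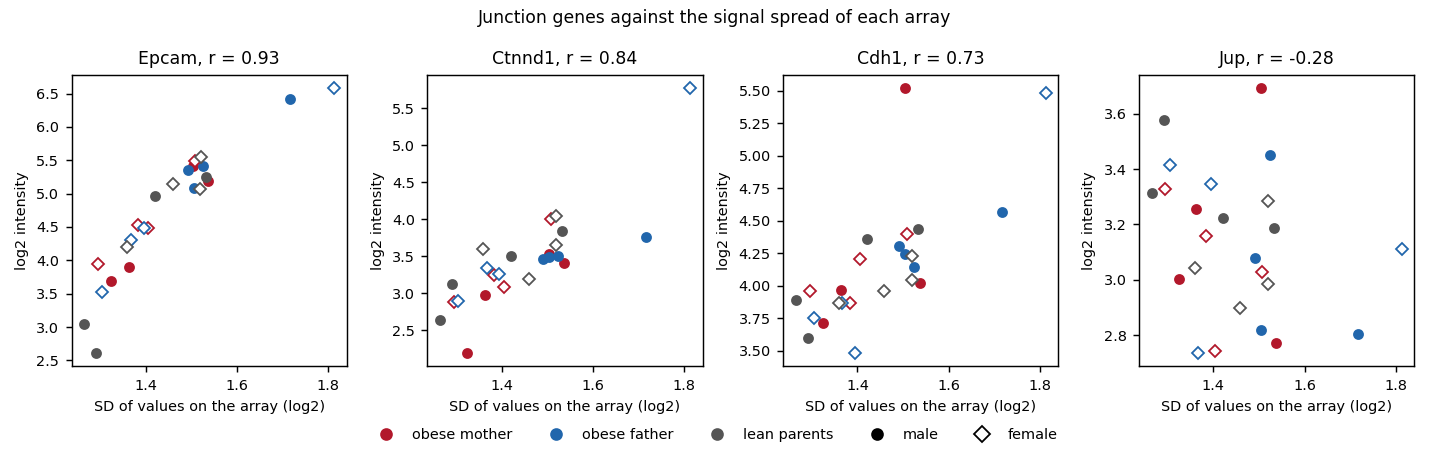
Log2 intensity of Epcam, Ctnnd1, Cdh1 and Jup (y axes) against the standard deviation of all values on the same array (x axis), 24 arrays, with males as filled circles and females as open diamonds. Epcam follows the spread (r = 0.93), Cdh1 of obese-mother male array 8 stands above the trend, and Jup shows no such rise (r = -0.28).

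Epcam varied most, with a standard deviation of 0.97 over the 24 arrays and 0.94 within groups, which exceeded that of 96.5% of all tested genes. Jup lay near the middle, with 0.28 within groups, above 59.1% of genes. The share of variance between groups was 25.8% for Epcam and 5.33% for Cdh1. Ordered by group means, neighbouring groups overlapped for each of the 9 genes. Epcam was highest in obese-father males (5.56) and lowest in lean-parent males (3.97), and Ctnna1 was highest in obese-father females (3.47) and lowest in lean-parent males (2.86).

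Among the 28 pairs of genes without Jup, 23 had a Pearson r above 0.5 over the 24 arrays, with a median of 0.60. Ctnnb1 and Dsc2 had the highest, 0.78. Without array 22, r exceeded 0.5 in 3 of the 28 pairs, each of them with Epcam (Ctnnd1 0.73, Cdh1 0.64, Ctnna1 0.56), and the median was 0.34. After the group means and the spread were removed it exceeded 0.5 in 2 pairs, Ctnnb1 with Dsc2 (0.58) and Ctnnd1 with Dsp (0.56), and the median was 0.12. The 8 pairs with Jup ran from -0.31 to 0.11, and after this removal Jup was closest to Cdh1 (0.44) and Dsp (0.39). These points share arrays and their spread, so the values describe the arrays.

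**Figure D4:**
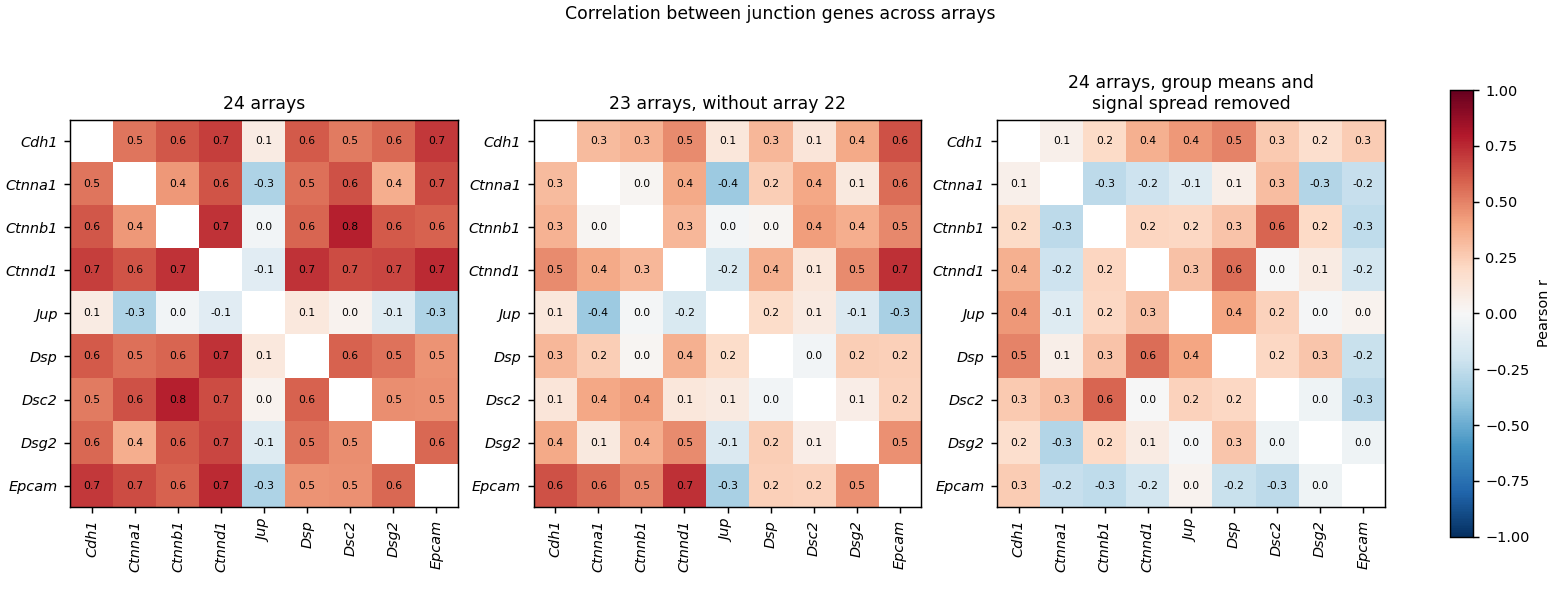
Pearson r between pairs of junction genes (both axes) across arrays, with red for positive and blue for negative values. The left panel uses 24 arrays, the middle panel leaves out array 22, and the right panel uses residuals from the group means and the signal spread. Among the 28 pairs without Jup, 23 exceed 0.5 in the left panel, 3 in the middle and 2 in the right one.

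Outside the 9 genes, likeness was measured as Pearson r with every tested gene, and the genes with the highest r are named. For Epcam they were Uqcrb (r = 0.97), Myl6 (0.97) and Rps7 (0.96) over the 24 arrays, and Uqcrb (0.84), Rps14 (0.82) and Myl6 (0.81) in the residuals from group means and spread. For Cdh1 they were Kars (0.90), Smarce1 (0.88) and Mob4 (0.87), and Mrps33 (0.83), Srfbp1 (0.83) and Mrpl41 (0.82) in the residuals. For Ctnnb1 they were Fmnl2 (0.92), Crlf3 (0.91) and Dr1 (0.91), and for Ctnnd1 Huwe1 (0.91), Npl (0.91) and Hells (0.90). For Jup they were Sun2 (0.72), Sema3c (0.69) and Shmt1 (0.68), and 49.4% of all genes were closer to Jup than Dsp, its closest relative among the 9. For Dsp, Capn2 came first (0.84), for Dsc2 Abcd3 (0.85), for Dsg2 Micos13 (0.83) and for Ctnna1 Adh5 (0.91).

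Other genes of these junctions came from 10 lists with 87 genes, of which 70 were tested. None was called in any comparison, and the smallest adjusted p against lean parents was 0.316. In males of obese fathers 21 of 70 were above 0 with a median log2 fold change of -0.14, against -0.11 for all genes, and 3 on the higher and 5 on the lower side had an unadjusted p under 0.05, where 14.7% of all genes had one. Genes that correlated positively with the spread lay above 0 in 18 of 26 cases and those that correlated negatively in 3 of 44, where the shares over all genes were 79.7% and 13.4%. The correlations and fold changes come from the same arrays, so they are not independent. In males of obese mothers, females of obese fathers and females of obese mothers 38, 40 and 40 of 70 were above 0, and 0, 0 and 1 had an unadjusted p under 0.05, where the shares over all genes were 1.7%, 2.84% and 2.19%.

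All 7 other cadherins were below 0 in males of obese fathers (median -0.20), as were 6 of 7 tested other desmosome genes (median -0.24). Each of these genes below 0 correlated negatively with the spread. Of all genes 33.3% were above 0 in this comparison, and of all genes that correlated negatively with the spread 13.4% were. N-cadherin, Cdh2, was at 2.93 ± 0.22 in males of obese fathers and 3.33 ± 0.16 in males of lean parents (SD, n = 4 each; log2 fold change -0.40, adjusted p = 0.316), and the plakophilin Pkp1, a plaque protein of desmosomes, at 3.48 ± 0.24 in males of obese fathers and 3.93 ± 0.20 in males of lean parents (-0.44, adjusted p = 0.322). Neither passed, and both correlated negatively with the spread (r = -0.71 and -0.85). In females of obese mothers Cdh6 was at 2.85 ± 0.14, against 2.48 ± 0.16 in females of lean parents (0.37, adjusted p = 0.999).

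Among partners of the cytoskeleton, the keratin Krt18, which desmoplakin tethers, was at 7.05 ± 0.60 in males of obese fathers and 5.88 ± 1.18 in males of lean parents (1.16, adjusted p = 0.335), with an r of 0.93 with the spread. Of the 4 desmosome-linked keratins 3 were above 0, with Krt8 at 0.27, and Krt19 was at -0.37 (r = -0.79 with the spread). The actin crosslinker Actn4 was at 0.54 and the non-muscle myosin heavy chain Myh9 at 0.45, and 3 of 10 tested actin linkers were above 0. Of 4 tested genes of nectin junctions 3 were above 0, with the scaffold Afdn at 0.23 and Nectin1 at -0.27. Of 5 tested catenin relatives 1 was above 0, and delta-catenin, Ctnnd2, was at -0.46.

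Among regulators of E-cadherin, 1 of 11 tested transcription regulators was above 0 in males of obese fathers (median -0.19), with the epithelial splicing regulator Esrp1 at -0.32 and Grhl1 at -0.26. The share of all genes above 0 in this comparison was 33.3%. Of 4 tested genes of E-cadherin turnover 2 were above 0, with the recycling GTPase Rab11a at 1.15 (r = 0.85 with the spread) and the ubiquitin ligase Cbll1 at -0.31. In the list of the beta-catenin destruction complex and TCF factors 6 of 12 were above 0. The kinase Csnk1a1, which phosphorylates beta-catenin, was at 4.50 ± 0.60 in males of obese fathers and 3.40 ± 0.39 in males of lean parents (1.10, adjusted p = 0.316), and the repressor Tcf7l1 at 4.55 ± 0.36 in males of obese fathers and 5.20 ± 0.27 in males of lean parents (-0.66, adjusted p = 0.316). They had r of 0.87 and -0.84 with the spread. Of 6 tested Epcam partners and proteases 1 was above 0, and the 2 with the smallest p were the protease inhibitor Spint2 (-0.29) and the protease St14, which cleaves EPCAM (-0.23).

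**Figure D5:**
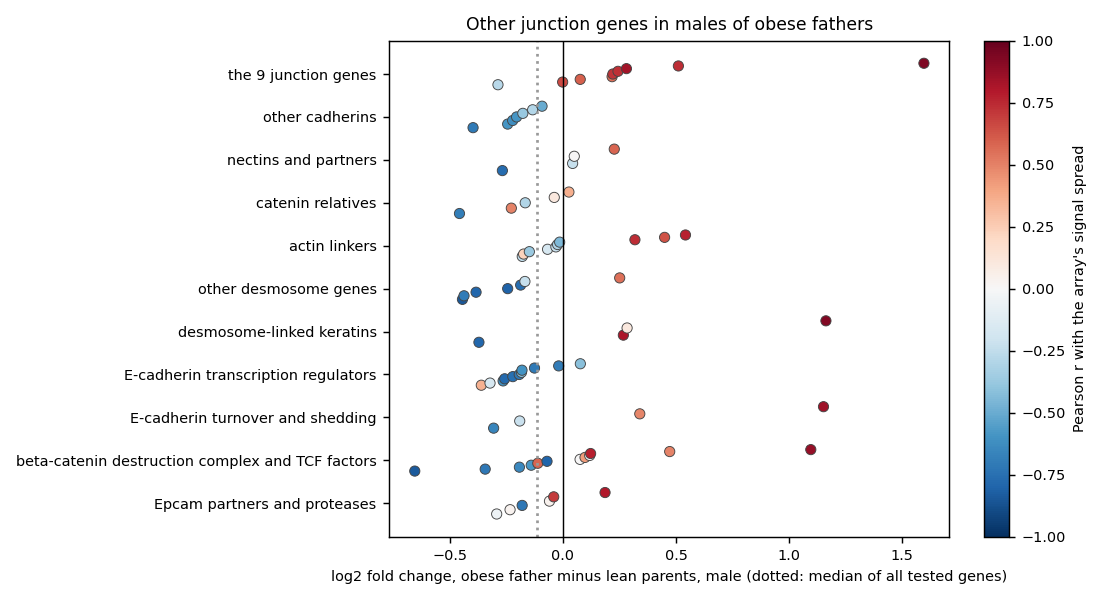
Log2 fold change in males of obese fathers against males of lean parents (x axis) for the 9 junction genes and 10 lists of related genes (rows), each point a gene, coloured by its Pearson r with the signal spread of the array. Red points (positive r) lie mostly right of 0 and blue points (negative r) left of it. Both measures come from the same arrays, and the spread averaged 1.56 in males of obese fathers and 1.38 in males of lean parents. The 2 measures are therefore not independent.

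Cells of the mother carry these junctions too, so markers of other cell types were read on the same arrays. In bulk pools fewer cells of a type and less RNA per cell cannot be told apart. Of 10 uterine and oviduct epithelium markers on the array 4 had a mean above the table median (Pax8, Foxj1, Wnt7a and Msx1), and Muc1, Ltf and Lcn2 were below it. The list mean ran from 2.29 to 2.91 over the arrays and correlated negatively with the spread (r = -0.92). In males of obese fathers 0 of its 5 tested members were above 0 (33.3% of all genes), and in females of obese fathers 3 of 5 (54.9% of all genes). Cumulus and granulosa markers ran from 2.41 to 3.11, with 7 of 12 above the table median, and 0 of 9 tested were above 0 in males of obese fathers. Blood and leukocyte markers ran from 1.93 to 2.55, with 3 of 10 above the table median, and sperm markers from 2.72 to 3.27, with 5 of 7. These 3 lists correlated negatively with the spread as well, with r of -0.90 for cumulus and granulosa, -0.92 for blood and -0.93 for sperm. The median r over all tested genes was -0.42. The part of these marker lists in the results was not tested.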

How the data were processed

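The authors deposited log2 intensities, 1 value for each probe set and array. RMA and affy are the tools named in the submitters' processing notes, and their versions, the probe set definition and the build were not given in the sources used here. Extracts were amplified and labelled from lysate with NuGEN kits, per the labels' protocols. The table held 35556 probe sets in 24 columns, and 0 columns matched no sample. In GEO's platform annotation 21789 sets had 1 symbol, 1621 several and 12146 none, and only sets with 1 symbol were given a gene name. For genes with more than 1 set the highest mean was used. Genes with at least 4 arrays above the table median were fitted.

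A mean for each of 6 groups was fitted to all 24 arrays with limma 3.58.1 (lmFit, eBayes) in R 4.3.3 without covariates, and a gene was called where its p, adjusted over all genes of that comparison by Benjamini-Hochberg, was below 0.05. The fit was checked on simulated data with independent noise for each gene and array. Those data held no signal spread shared by the genes of an array, so the check does not cover it. All 9 members are named, and of each related list the 2 genes with the smallest p per comparison with lean parents were eligible, with examples given. Likeness is the highest Pearson r among tested genes. The members and lists were chosen with earlier results of these data known. Alternatives were the filter, probe set choice, prior, array weights, rescaling, covariates, fits with fewer groups or arrays and a threshold of 0.10. Promoter windows came from RefSeq (GRCm38.p6). The number of arrays limits the precision.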

Additional observations from a re-analysis of the deposited data

Results flagged for a closer look

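Of 54 combinations of gene and group with 4 arrays, 6 held an array that stood farther from the others than Dixon's 95% critical value allows, and chance alone would mark about 1 in 20. Array 22 of the obese-father females was the high one for Ctnnb1 (4.927, next 3.192), for Ctnnd1 (5.774, next 3.341) and for Dsp (4.375, next 3.299). It had the widest signal spread, and 17.8% of all tested genes had their highest value on it. Cdh1 was high on obese-mother male array 8 (5.524, next 4.02), whose spread of 1.50 was not extreme. Ctnnd1 was high on obese-father male array 12 (3.764, next 3.499), the array with the second-widest spread. Dsc2 was high on lean-parent male array 4 (2.95, next 2.705), the array with the narrowest spread.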

How the results depend on the processing

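No junction gene was called in any comparison under any alternative but 1. With the first residual component as a covariate Epcam was called, giving a count of 1 in each of 3 comparisons, namely obese father minus lean parents in males (adjusted p = 0.000194), obese mother minus obese father in males (0.0121) and the obese-father effect, male minus female (0.00357). In these comparisons the same setting called 1901, 601 and 350 of all 13311 genes in the order obese father minus lean parents, obese mother minus obese father and difference between the sexes, against 1, 1 and 0 without it. That component is made from the residuals of the same fit, so by construction it leaves the fold changes as they were and takes away residual variance. The median log2 fold change of the 9 genes moved by more than the spread between replicates, 0.29, in these cases. With the signal spread as a covariate it was -0.245 for obese father minus lean parents in males, 0.0394 for obese mother minus obese father in males and -0.374 for the obese-father effect, male minus female. For obese father minus lean parents in females it was -0.218 with array weights and -0.227 without the 2 arrays of widest spread, and from -0.227 to 0.376 when single arrays were left out. For obese mother minus obese father in females it was 0.0168 without the 2 widest arrays, and from -0.488 to 0.0168 when single arrays were left out. For the obese-father effect, male minus female, leaving out single arrays gave -0.181 to 0.473. The low end in the first case, and the high end in the other 2, came without obese-father female array 22. The causes were not tested. Of 99 single fold changes the sign differed in 31 with the spread as a covariate, in 17 with array weights, in 16 without the 2 widest arrays, in 10 after quantile normalization and in 2 after centring arrays on medians. It differed in 116 of 936 fold changes when single arrays were left out, and none of all these was called. The stricter filter removed Dsg2. No paired analysis was possible because the labels do not name the dam or sire of a pool.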
